A study of Saccharomyces cerevisiae with 8 samples.

Results

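Cryptic unstable transcripts (CUTs) that were moderately raised without Rrp6 are described here across 4 strains of budding yeast. A CUT was included when it had at least 20 counts over both rrp6 libraries and when its scaled count in rrp6 was at least 4 times, and less than 16 times, that in WT. The rule chose 369 CUTs. They are 39.9% of the 925 CUTs in a count table of 9014 features, and 52.2% of the 707 CUTs with enough counts. Of the others, 165 had a ratio of 16 or more, 173 a ratio under 4, and 218 had too few counts.

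CUTs are short RNA polymerase II transcripts, many of which start at promoters of other genes and run in the opposite direction. Their transcription is ended early by the Nrd1-Nab3-Sen1 complex. TRAMP, made of a poly(A) polymerase (Trf4 or Trf5), a zinc knuckle protein (Air1 or Air2) and the helicase Mtr4, then adds a short adenosine tail, and the nuclear exosome with its exonuclease Rrp6 degrades the RNA. In WT cells most CUTs are therefore barely seen, and they are known for appearing when Rrp6 is lost.

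RNA that bound poly(U) sepharose was sequenced on the SOLiD platform, with 2 libraries for each strain, so a CUT is seen here as far as it carries adenosines at its end. The air1 rrp6 strain carried rrp6::LEU2 with air1::bleR, the air2 rrp6 strain rrp6::LEU2 with air2::bleR, and the rrp6 strain rrp6::LEU2 alone, while the reference was BY4742 (WT). All were MAT-alpha, with the alleles his3D1, leu2D0, lys2D0 and ura3D0 in the background, WT included, and were grown in YPD at 30 °C to an OD600 of about 2.5. Loss of Rrp6 and presence of LEU2 go together in these strains and cannot be told apart, and neither can an added air deletion and its bleR marker. The series asks whether Air1 and Air2 lead TRAMP to different RNAs. Nothing in the labels says that duplicates came from separate cultures, and a strain was grown from 1 colony, so the p-values speak of the spread among these libraries, which may be technical. In bulk RNA, fewer cells with a transcript and less of it per cell cannot be told apart.

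Counts outside the ribosomal DNA ran from 6054090 to 12763854 in the 6 libraries without RRP6, and were 4565468 in WT replicate 1 and 22041136 in WT replicate 2. The deleted genes followed the labels: RRP6 had 19 to 51 counts in each library without it and 377 and 2131 in WT, AIR1 had 7 and 2 in air1 rrp6, and AIR2 had 34 and 21 in air2 rrp6. WT replicate 2 stands apart by its depth, and it held 87.1% of the WT counts of the 369 CUTs, against 82.8% of all WT counts outside the ribosomal DNA. Levels below are counts scaled to library size (CPM, on the TMM scale), where 1 count in WT replicate 1 is worth 0.0805 CPM. Transcript lengths were not used here, so levels are compared between strains and not between CUTs.

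The CUTs were chosen by the summed counts of rrp6 and WT, so these values are given as a description with no test. The ratio of rrp6 to WT had a median of 7.47, with quartiles at 5.32 and 10.2, and ran from 4.02 to 15.8. It was under 8 in 205 CUTs and 8 or more in 164. Both limits cut through a continuous distribution. Just above the lower limit lay CUT916 at 4.02, CUT095 at 4.04 and CUT385 at 4.06, and just below it CUT522 at 3.99, CUT422 at 3.96 and CUT705 at 3.94. At the upper limit CUT650 had 15.8, and CUT269 and CUT706 had 15.6, while CUT242 at 16.03, CUT609 at 16.1 and CUT610 at 16.1 lay outside.

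**Figure D1:**
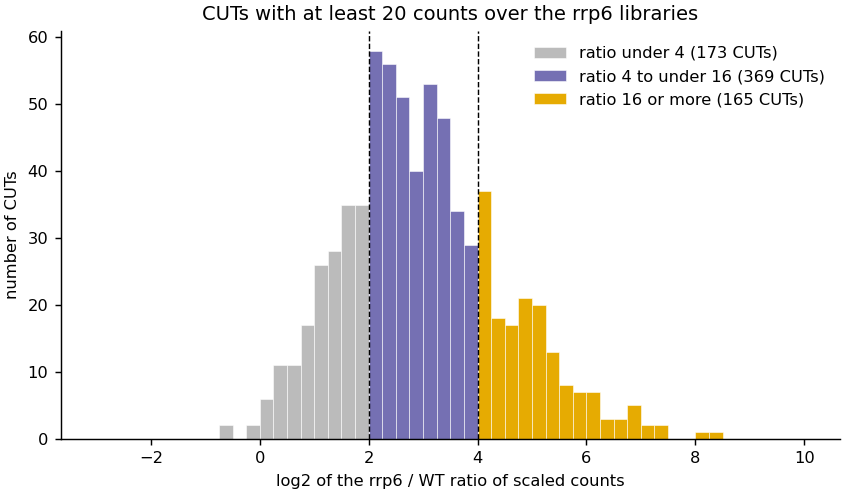
Number of CUTs (vertical axis) by the log2 ratio of scaled counts in rrp6 over WT (horizontal axis), for the 707 CUTs with at least 20 counts over the rrp6 libraries. Dashed lines mark the limits of the rule, and the 369 chosen CUTs between them fill the middle of a single broad hump.

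Few counts stood behind many of these ratios. Over both WT libraries the CUTs had a median of 14 counts, with a range of 1 to 161, and 25 of them had 1 to 3. In WT replicate 1 the median was 1 count and 135 CUTs had none. In the ratio without the added count, the exact 95% interval, which covers counting error only, lay wholly within the limits for 69 of 369 CUTs. It reached below the lower limit for 164, to the upper limit or beyond for 176, and past both for 40. CUT742 was among the firmest, with 734 counts in rrp6 and 89 in WT, a ratio of 10.7 and an interval of 8.59 to 13.5. CUT706 was among the loosest, with 23 counts in rrp6 and 1 in WT, a ratio of 29.9 and an interval of 4.86 to 1232. With WT replicate 1 alone in the ratio, 243 CUTs stayed within the limits, 62 were above and 64 below. With WT replicate 2 alone, 313 stayed, 18 were above and 38 below. The numbers that stayed were 297 with rrp6 replicate 1 alone and 322 with rrp6 replicate 2 alone.

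All 3 strains without RRP6 held these CUTs at similar levels. The median level was 1.27 and 1.35 CPM in the air1 rrp6 libraries, 1.24 and 1.58 in air2 rrp6, 1.27 and 1.65 in rrp6, and 0.0805 and 0.214 in WT. The 6 libraries without RRP6 overlap with each other and lie far above both WT libraries. Both libraries lay above both WT libraries for 361 CUTs in air1 rrp6, 363 in air2 rrp6 and 365 in rrp6, as they did for 28.6, 30.7 and 28.5% of all features tested. For 355 CUTs all 6 libraries did, a count for which the share over all features was not worked out. The 14 exceptions had 1 or more libraries at or below a WT library. Among them were CUT797 and CUT916, which were low in air1 rrp6, and CUT044, with 120 counts in rrp6 and with 16 of its 25 WT counts in WT replicate 1. These 3 were chosen after their values were seen. Values in rrp6 and WT entered the rule, so this separation is not a finding for that pair. The rule also chose low WT values, so for the double mutants the separation from WT is a description only.

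**Figure D2:**
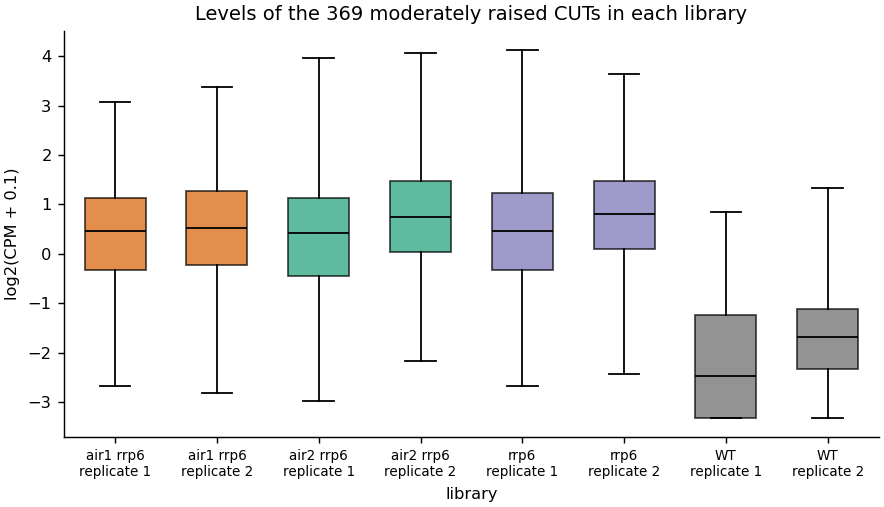
Levels of the 369 CUTs in each of the 8 libraries, as log2(CPM + 0.1). Boxes span the quartiles with the median as a line, and whiskers reach the lowest and highest CUT. Medians are 1.24 to 1.65 CPM in the 6 libraries without RRP6 and 0.0805 and 0.214 CPM in WT.

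Together the 369 CUTs took 0.169 and 0.196% of the counts outside the ribosomal DNA in air1 rrp6, 0.184 and 0.225% in air2 rrp6, 0.187 and 0.228% in rrp6, and 0.0204 and 0.0284% in WT. Over both libraries the 3 strains without RRP6 overlap in this share, and in each strain replicate 2 was the higher of the pair. Within replicate 1 and within replicate 2 the order was the same, with air1 rrp6 lowest, air2 rrp6 next and rrp6 highest. The replicate numbers are not shown to pair libraries of different strains, so this order is a description only. The CUTs raised 16-fold or more took 0.130% ± 0.012 (SD, n = 2) in air1 rrp6, 0.163% ± 0.00017 in air2 rrp6, 0.198% ± 0.0032 in rrp6 and 0.00432% ± 0.00015 in WT, and there the 3 strains without RRP6 did not overlap. The CUTs with a ratio under 4 took 0.0800% ± 0.010, 0.0908% ± 0.023 and 0.0775% ± 0.019 in air1 rrp6, air2 rrp6 and rrp6, and 0.0286% ± 0.010 in WT. Shares were not tested, since with 2 libraries on each side the smallest two-sided p of an exact permutation test is 0.333. The difference between the classes was not tested either. Counts in rrp6 and WT define the classes, so the place of rrp6 and WT in each class is a description only.

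**Figure D3:**
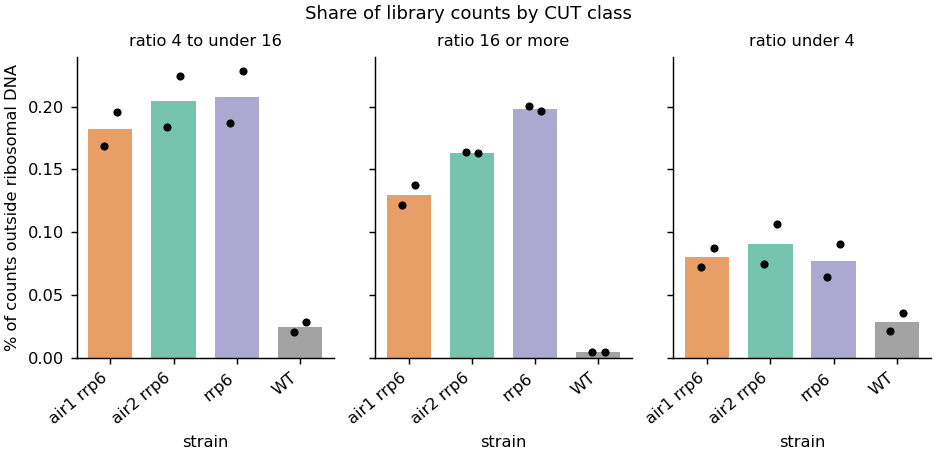
Share of the counts outside the ribosomal DNA (vertical axis) taken by 3 classes of CUTs, sorted by their ratio of rrp6 to WT. Bars are means of 2 libraries and dots are the libraries. The libraries without RRP6 run from 0.169 to 0.228% in the class with a ratio of 4 to under 16, with overlap between the 3 strains.

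The signal was spread over many CUTs. The 8 with the most counts over the libraries without RRP6 held 9.68% of the 109384 counts of the whole group, and the top 37 held 28.8%. CUT742, the best counted, had 8.27 and 10.3 CPM in air1 rrp6, 12.01 and 16.6 in air2 rrp6, 12.8 and 12.3 in rrp6, and 1.37 and 1.18 in WT. Its air1 rrp6 libraries were the lowest of the 6 and did not overlap with the other 2 strains. CUT229 had 6.71 and 7.19 CPM in air1 rrp6, 15.5 and 11.2 in air2 rrp6, 14.3 and 7.51 in rrp6, and 1.05 and 1.32 in WT. Again air1 rrp6 was lowest, here just below rrp6 replicate 2. CUT155 had 6.88 and 5.30 CPM in air1 rrp6, 5.89 and 4.32 in air2 rrp6, 17.4 and 5.56 in rrp6, and 1.05 and 2.43 in WT. Its rrp6 libraries differed 3.13-fold, and replicate 1 alone stood out. CUT686 had 6.31 and 6.43 CPM in air1 rrp6, 9.11 and 8.52 in air2 rrp6, 7.30 and 9.88 in rrp6, and 1.61 and 1.84 in WT. CUT155, CUT686 and CUT661 had the most counts in WT, with 161, 132 and 116.

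CUT260, CUT655, CUT661 and CUT301 complete the 8 best counted. CUT260 had 6.13 and 6.89 CPM in air1 rrp6, 6.47 and 5.82 in air2 rrp6, 8.51 and 5.98 in rrp6, and 0.403 and 0.674 in WT. CUT655 had 6.02 and 6.43 CPM in air1 rrp6, 4.88 and 6.098 in air2 rrp6, 7.39 and 5.73 in rrp6, and 0.403 and 0.510 in WT. The 3 strains overlap in both, with both WT libraries far below. CUT661 had 5.55 and 5.00 CPM in air1 rrp6, 5.99 and 5.90 in air2 rrp6, 7.70 and 6.15 in rrp6, and 1.13 and 1.68 in WT. CUT301 had 4.69 and 5.47 CPM in air1 rrp6, 6.44 and 9.81 in air2 rrp6, 5.94 and 7.68 in rrp6, and 0.242 and 0.576 in WT. In both the air1 rrp6 libraries were the lowest of the 6.

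**Figure D4:**
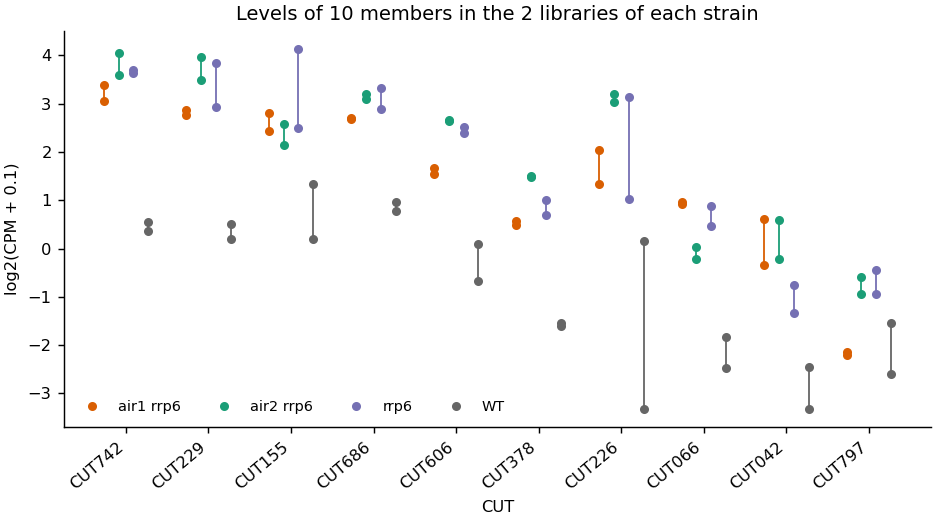
Levels of 10 of the CUTs in the 2 libraries of each strain, as log2(CPM + 0.1), with a line joining duplicates. WT lies below the strains without RRP6 except for CUT797, where the air1 rrp6 libraries at 0.116 and 0.126 CPM fall between the WT libraries at 0.242 and 0.0658 CPM. The rrp6 duplicates of CUT155 and CUT226 lie far apart.

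The double mutants were set against WT to see whether the CUTs stayed raised when Air1 or Air2 was absent too. Of the 369 CUTs, 365 passed the filter on low counts and were tested, and CUT031, CUT627, CUT323 and CUT809 were not. With edgeR's quasi-likelihood test, p-values being adjusted over all 7543 features tested, 225 of the 365 were higher in air1 rrp6 than in WT, where 7.64% of all features were. In air2 rrp6 247 were higher than in WT, where 8.75% of all features were. None of the 365 was lower by edgeR or DESeq2 in either comparison, where edgeR called 0.756% of all features lower in air1 rrp6 and 1.54% in air2 rrp6. At an unadjusted p under 0.05 the CUTs lower were also 0 by both tools, against 4.77 and 6.24% of all features by edgeR. Fold changes of all 365 were above 0 in both comparisons, with a median of 2.77 on the log2 scale for air1 rrp6 and 2.94 for air2 rrp6, against 0.02 and 0.03 over all features. The WT libraries entered the rule, so these counts are read as a description only. They also hang on single libraries, as do the counts over all features. The median log2 fold change in air1 rrp6 was 2.76 without its replicate 1, 2.68 without its replicate 2 and 3.77 without WT replicate 2. In air2 rrp6 the median was 3.04 and 2.65 without its replicates 1 and 2, and 3.72 without WT replicate 2.

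By the same ratio as the rule, with the double mutant in place of rrp6, the median over the 369 CUTs was 6.98 in air1 rrp6 and 7.37 in air2 rrp6. In air1 rrp6 302 CUTs lay between 4 and 16, 19 were at 16 or more and 48 were under 4. In air2 rrp6 317 lay between, 17 were above and 35 below, and 274 lay between in both double mutants. The order within the group was the same by median, which is given as a description. CUTs with a ratio under 8 in rrp6 had a median of 5.31 in air1 rrp6 and of 5.40 in air2 rrp6, and the others of 9.74 and 10.05. These 3 ratios share the WT libraries, and a low WT count raises all 3, so that order is partly built in.

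CUTs that reached 16 or more in both double mutants were CUT600, CUT209, CUT706, CUT269 and CUT827, which were chosen after their values were seen. All but CUT827 had 1 or 2 counts in WT. CUT600, the highest in air1 rrp6 at 34.0, had 1.33 and 1.22 CPM in air1 rrp6, 0.845 and 0.808 in air2 rrp6, 0.375 and 0.721 in rrp6, and 0.161 and 0 in WT. At the other end 19 CUTs were under 4 in both double mutants, CUT155 and CUT153 among them. CUT916 had the lowest ratio in air1 rrp6, at 1.22, and CUT190 the lowest in air2 rrp6, at 2.04.

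The comparison of air1 rrp6 with rrp6 asks what the loss of Air1 adds when Rrp6 is absent. None of the 365 CUTs passed edgeR's quasi-likelihood test in either direction, where 0 and 0.0663% of all features were higher and lower. At an unadjusted p under 0.05, 8 CUTs were lower and 0 higher, which is 2.19% of the CUTs, against 2.02% of all features lower and 3.67% higher. DESeq2 called none either, with 6 lower at an unadjusted p under 0.05, though it gave no adjusted p for 342 of them. On the log2 scale the fold changes had a median of -0.21, against -0.01 over all features, and the range from the 10th to the 90th percentile was -0.84 to 0.44. Below 0 were 246 CUTs and above it 119. Both air1 rrp6 libraries lay below both rrp6 libraries for 111 CUTs, or 30.4%, against 18.5% of all features, and above them for 30, or 8.22%, against 18.2%. The rrp6 libraries entered the rule, so this comparison is not independent of the choice of the CUTs. The part of the choice in the lower values was not tested. Without rrp6 replicate 2 the median was -0.06.

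CUT606 had the smallest p in this comparison. It had 2.83 and 3.07 CPM in air1 rrp6, against 5.63 and 5.13 in rrp6, and the libraries do not overlap (log2 fold change -0.86, SE 0.32, edgeR adjusted p = 0.784). CUT797 had 0.116 and 0.126 CPM in air1 rrp6, against 0.635 and 0.424 in rrp6 (log2 fold change -2.10, SE 0.80, edgeR adjusted p = 0.784). It rests on 2 and 3 counts in the air1 rrp6 libraries. CUT274 had 0.116 and 0.420 CPM in air1 rrp6, against 0.981 and 1.06 in rrp6, and again the strains do not overlap. In the other direction CUT042 had 0.694 and 1.43 CPM in air1 rrp6, against 0.491 and 0.297 in rrp6 (log2 fold change 1.42, SE 0.67, edgeR adjusted p = 0.784). CUT733 had 6.71 and 5.09 CPM in air1 rrp6 and 2.86 and 4.75 in rrp6. CUT343 had 1.74 and 1.47 CPM in air1 rrp6 and 0.894 and 0.594 in rrp6. In these 3 both air1 rrp6 libraries were the higher ones.

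For the loss of Air2, air2 rrp6 was set against rrp6, which shares the rrp6 libraries with the comparison above. None of the 365 CUTs passed edgeR's quasi-likelihood test, where 0 and 0.0133% of all features were higher and lower. At an unadjusted p under 0.05, 5 CUTs were lower and 1 higher, or 1.37 and 0.274%, against 1.67 and 0.994% of all features. DESeq2 called none, with 4 lower and 1 higher at an unadjusted p under 0.05 and no adjusted p for 287. The median log2 fold change was -0.05, against 0.02 over all features. Its sign turned to 0.07 without air2 rrp6 replicate 1 and to 0.10 without rrp6 replicate 2. Both air2 rrp6 libraries lay below both rrp6 libraries for 63 CUTs, or 17.3%, against 13.2% of all features, and above them for 20, or 5.48%, against 15.7%. Below and above were 24.1 and 8.64% of the CUTs raised 16-fold or more, and 10.5 and 15.1% of those with a ratio under 4.

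CUT153 had 1.85 and 2.46 CPM in air2 rrp6, against 4.91 and 3.99 in rrp6 (log2 fold change -1.05, SE 0.36, edgeR adjusted p = 1.0). In air1 rrp6 it had 2.08 and 2.86 CPM, also below both rrp6 libraries. CUT840 had 1.45 and 2.10 CPM in air2 rrp6, against 3.92 and 3.01 in rrp6, and CUT720 had 2.22 in both air2 rrp6 libraries, against 4.97 and 3.35 in rrp6. Neither overlaps between the strains. CUT458 had 5.31 and 7.35 CPM in air2 rrp6, against 3.09 and 3.99 in rrp6 (log2 fold change 0.84, SE 0.37, edgeR adjusted p = 1.0). CUT378 had 2.72 and 2.71 CPM in air2 rrp6, against 1.90 and 1.53 in rrp6, while CUT042 had 0.766 and 1.41 CPM, against 0.491 and 0.297 in rrp6. In all 3 the air2 rrp6 libraries were higher.

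The comparison of air1 rrp6 with air2 rrp6 sets against each other no library that entered the rule. Its filter, scaling and p-values still draw on all 8 libraries, those of rrp6 and WT included. It asks whether CUT levels differ by which zinc knuckle protein is lost. Only RNA that bound poly(U) was sequenced, so the amount of a CUT and its adenosine tail cannot be told apart. None of the 365 CUTs passed edgeR's quasi-likelihood test, where 0.0133% of all features were higher in air1 rrp6 and 0.0663% lower. At an unadjusted p under 0.05, 12 CUTs were lower and 3 higher, or 3.29 and 0.822%, against 1.87 and 2.12% of all features. DESeq2 called none, with 7 lower at an unadjusted p under 0.05 and no adjusted p for 308. The median log2 fold change was -0.12, against -0.01 over all features, -0.25 over the CUTs raised 16-fold or more and 0.01 over those with a ratio under 4. It was 0.10 without air2 rrp6 replicate 2, so the direction of the median rests on that library. Both air1 rrp6 libraries lay below both air2 rrp6 libraries for 86 CUTs, or 23.6%, against 19.5% of all features, and above them for 40, or 10.96%, against 18.6%. Below and above were 29.0 and 7.41% of the CUTs raised 16-fold or more, and 23.3 and 16.9% of those with a ratio under 4. Fold changes from the 10th to the 90th percentile ran from -0.77 to 0.48 on the log2 scale. At -1 or below fell 19 CUTs, or 5.21%, against 2.02% of all features. At 1 or above fell 10, or 2.74%, against 2.09%. These shares were 8.14 and 2.91% over the CUTs with a ratio under 4, and 8.64 and 1.23% over those raised 16-fold or more.

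**Figure D5:**
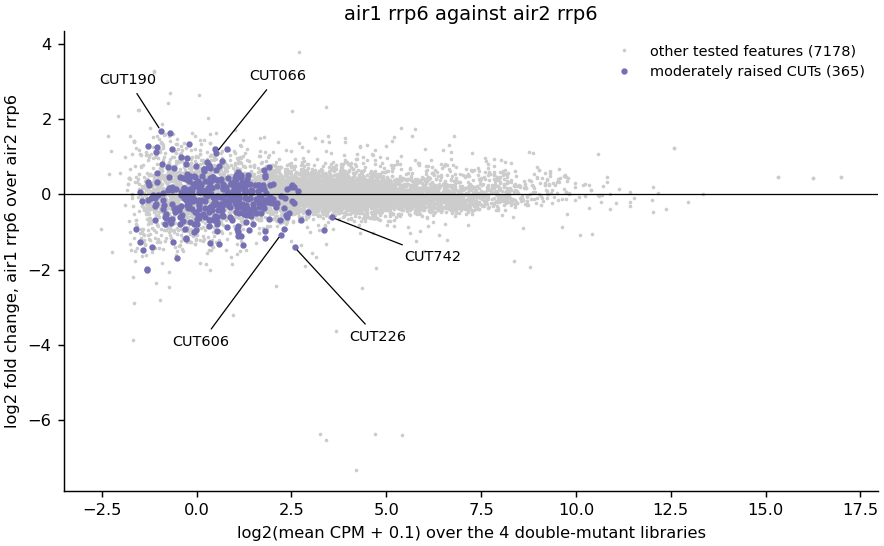
Log2 fold change of air1 rrp6 over air2 rrp6 (vertical axis) against the mean level over the 4 double-mutant libraries, as log2(mean CPM + 0.1), for 365 moderately raised CUTs and 7178 other tested features. The CUTs sit at the low end of the levels and around 0, with a median of -0.12, and none passed the test.

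CUT606 again had the smallest p. Its levels were 2.83 and 3.07 CPM in air1 rrp6, against 6.18 and 6.22 in air2 rrp6, and duplicates were close in both (log2 fold change -1.07, SE 0.32, edgeR adjusted p = 0.991). CUT229, at 6.71 and 7.19 CPM in air1 rrp6 against 15.5 and 11.2 in air2 rrp6, had a log2 fold change of -0.94 (SE 0.32, edgeR adjusted p = 0.991). CUT378 had 1.39 and 1.30 CPM in air1 rrp6, against 2.72 and 2.71 in air2 rrp6. None of these 3 overlaps between the strains. On the other side CUT387 had 0.636 and 0.925 CPM in air1 rrp6, against 0.264 and 0.242 in air2 rrp6 (log2 fold change 1.61, SE 0.65, edgeR adjusted p = 0.991). CUT066 had 1.79 and 1.85 CPM in air1 rrp6, against 0.766 and 0.929 in air2 rrp6. CUT190 had 0.694 and 0.589 CPM in air1 rrp6, against 0.158 and 0.242 in air2 rrp6, on 6 counts in each air2 rrp6 library.

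Among CUTs with at least 100 counts over the double mutants, CUT226 had the lowest ratio of air1 rrp6 to air2 rrp6, at 0.373. It had 2.43 and 3.99 CPM in air1 rrp6, 8.16 and 9.05 in air2 rrp6, 1.93 and 8.74 in rrp6, and 0 and 1.02 in WT. Of its rrp6 duplicates, replicate 1 lay below both double mutants and replicate 2 between the air2 rrp6 libraries. CUT119 followed at 0.398, with 1.68 and 0.841 CPM in air1 rrp6 against 3.67 and 2.67 in air2 rrp6, and CUT233 at 0.403. The highest ratios were those of CUT434 at 2.28, with 1.97 and 2.56 CPM in air1 rrp6 against 0.898 and 1.09 in air2 rrp6, CUT374 at 2.26 and CUT066 at 2.15.

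Across the 3 strains without RRP6 the mean level of a CUT differed by a median of 1.44-fold between its highest and lowest strain. For 318 CUTs the span was under 2-fold and for 3 it was 4-fold or more. These were CUT797, CUT916 and CUT923, named after their values were seen, with 32, 33 and 21 counts in rrp6. The highest strain was air1 rrp6 for 85 CUTs, air2 rrp6 for 129 and rrp6 for 155, and the lowest was air1 rrp6 for 189, air2 rrp6 for 113 and rrp6 for 67. Counts in rrp6 entered the rule, so the place of rrp6 in this tally is a description only. The same tally over all features was not made.

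The spread between duplicates was of the same order. The median absolute log2 difference between duplicates, on log2(CPM + 0.1), was 0.39 in air1 rrp6, 0.47 in air2 rrp6, 0.50 in rrp6 and 0.87 in WT, against 0.29, 0.25, 0.36 and 0.33 over all tested features. Replicate 2 was the higher of each pair on balance, with median log2 differences of replicate 1 over replicate 2 of -0.08 in air1 rrp6, -0.30 in air2 rrp6, -0.25 in rrp6 and -0.58 in WT, against 0.01, -0.03, -0.05 and -0.03 over all tested features. The part of this shift in the results was not tested. Among CUTs with at least 100 counts over a strain without RRP6, the 3 largest gaps within such a strain were in CUT626, with 0.554 and 3.27 CPM in air2 rrp6, and in CUT238 and CUT226 in rrp6. CUT238 had 1.27 and 5.77 CPM in rrp6, a 4.54-fold gap, and in air1 rrp6 and air2 rrp6 its replicate 2 was also the higher.

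The authors' deposited table gives each CUT an annotation word, which the rule did not use and which the labels do not define. Of the 369 CUTs, 234 (63.4%) carried bothEndsMapped, 89 (24.1%) mapped5, 45 (12.2%) mapped3 and 1 mappedNone. Among the 165 CUTs raised 16-fold or more, the shares were 63.0% for bothEndsMapped, 15.2% for mapped5 and 20% for mapped3, and among the 173 with a ratio under 4 they were 56.6, 20.8 and 20.8%. The median ratio of rrp6 to WT was 7.80 for bothEndsMapped, 6.37 for mapped5 and 7.80 for mapped3. In air1 rrp6 against air2 rrp6 the median log2 fold changes were -0.12, -0.09 and -0.17 in that order of words, within a narrow band. The authors' deposited table also gives log2 ratios to rrp6, whose medians over the 369 CUTs were -0.19 for air1 rrp6 and -0.06 for air2 rrp6.

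Genes of nuclear RNA surveillance were looked at beside the CUTs, as a list of 24 exosome, TRAMP, cap-binding and early termination genes that were all tested. NRD1, which encodes an RNA-binding subunit of the early termination complex, was the 1 gene of the list higher in each strain without RRP6 than in WT, with edgeR adjusted p = 0.0201 in air1 rrp6, 0.00321 in air2 rrp6 and 0.00337 in rrp6. Its log2 fold changes over WT were 1.61, 2.47 and 2.38 in that order of strains. The genes lower than in WT were the deleted ones, with RRP6 in all 3 strains, AIR1 in air1 rrp6 and AIR2 in air2 rrp6. Between the strains without RRP6 the calls in the list were AIR1 and AIR2 themselves. Counts for the CUTs may include reads of genes that overlap them, since whether counting followed strand is not known. All but 3 of the 369 CUTs, CUT590, CUT673 and CUT720, had whole counts in every library.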

How the data were processed

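Polyadenylated RNA from 4 strains, 2 libraries each, was counted per feature. The expected counts, deposited by the authors with no scaling for depth, are partly not whole (11.1 to 13.0% of values per library) and were rounded for the tests. The tools named in the submitters' processing notes are Bowtie 0.12.7, edgeR 2.2.5 and SAMtools. Build: not given in the sources used here. No coordinates or sequences of CUTs were used. The other deposited table, per the file headers, holds log2 ratios and an annotation word per feature, and it entered no test.

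The rule's ratio adds 1 count to each strain's sum and divides by total counts outside ids starting RDN, ETS, ITS or NTS. Tests used edgeR 4.0.16 in R 4.3.3, with filterByExpr (minimum count 10) and TMM scaling. Robust quasi-likelihood fits used all 8 libraries (a mean for each strain), with Benjamini-Hochberg adjustment over 7543 features at 0.05. The code was also run on simulated counts, which do not show what the test can find among CUTs with few counts. Rrp6 against WT was not tested for these CUTs because it chose them. The CUTs, lists and comparisons were chosen with earlier results of these data known. Named CUTs were the 8 with most counts, those with the smallest p in each direction of each comparison without WT, those nearest the limits, and those extreme in air1 rrp6 over air2 rrp6, in WT counts or between duplicates. Others are said to be chosen after their values were seen. Intervals and counts of 0 cover counting error only. DESeq2 1.42.0, other scalings, no filter, 2 strains alone, a replicate block and leaving out each library were tried.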

Additional observations from a re-analysis of the deposited data

Results flagged for a closer look

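Of the named CUTs, some of which were picked for a small p or an extreme ratio between the double mutants, 5 had both libraries of one double mutant above both rrp6 libraries and both libraries of the other double mutant below them. The same held for 11 of all 365 tested CUTs (3.01%) and for 175 of 7543 features (2.32%). The difference is the comparison of air1 rrp6 with air2 rrp6, in which none of them passed edgeR's quasi-likelihood test (adjusted p = 0.991 for each). Lower in air1 rrp6 were CUT606 (log2 fold change -1.07), CUT378 (-1.01) and CUT233 (-1.28). Higher in air1 rrp6 were CUT387 (1.61) and CUT066 (1.11). CUT233 had 0.521 and 0.841 CPM in air1 rrp6, 1.40 and 1.98 in air2 rrp6, and 1.18 and 1.02 in rrp6.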

How the results depend on the processing

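Counts of CUTs higher than in WT moved with the samples fitted. With the 2 strains fitted alone they were 130 in air1 rrp6 and 159 in air2 rrp6, where 280 and 328 CUTs passed the filter, and over left-out libraries they ran from 48 to 213 and from 98 to 245. Library totals outside the ribosomal DNA, RLE factors, no filter, DESeq2 and the replicate block left the CUT counts of both double mutants within 1.5 times. The count of CUTs called between strains without RRP6 was 0 under every alternative run, and the 23 fold changes of 20 CUTs chosen by p or ratio kept their direction in every alternative that gave a value. CUT797 in air1 rrp6 against rrp6 gave none with the 2 strains alone. Same-numbered libraries deviated together at r = 0.126 to 0.366 across 7543 features, but with 2 per strain the numbers are not shown to pair them. With the replicate block 270 CUTs were higher in air1 rrp6 than in WT and 303 in air2 rrp6, where 766 and 856 of 7543 features were. Leaving out a library moved 5 medians by more than a set limit. That limit was the SD of the medians from every pairing of single libraries of the 2 strains compared. For air1 rrp6 against WT the median was 2.56 without WT replicate 1 and 3.77 without WT replicate 2, where air2 rrp6 had 3.72. The others stand in the text. A left-out library leaves a lone sample assumed to vary like the other strains. WT replicate 1 is the shallowest library, and 135 of the CUTs had no count in it.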
